A study of Saccharomyces cerevisiae with 164 samples.

Results

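Chromosome III is among the smallest chromosomes of the yeast Saccharomyces cerevisiae. Its genes were chosen by measured values: their RNA stood together at a raised level in the libraries of one histone H3 mutant, K56R_H3X. All rows that the full-length count files place on chromosome III were members, except 6 rows left out by systematic name (LEU2, FUS1, GLK1, PGK1, RPS14A and a Ty element). That left 179 members of 6692 features. The 3′-end count files list 118 of them among 5013 features. The members include 67 on the left arm and 112 on the right arm, and 161 match a gene of the R64 reference. The levels in K56R_H3X and in delta4-20_H3Y led to this choice of chromosome. They are given below as a description with no test.

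Chromosome III carries the mating-type genes. The active locus MAT lies on the right arm, and the silent cassettes HML and HMR lie near the left and right ends and hold spare copies of mating-type information. A cell uses HML or HMR as a template when it switches mating type, so the 3 loci share sequence. The rest of the chromosome is an ordinary mix of housekeeping genes, among them enzymes of threonine and histidine synthesis, ribosome assembly factors, DNA repair proteins and the corepressor TUP1. Lysine 56 of H3 sits near the entry and exit of nucleosomal DNA. Cells acetylate it on new H3 during DNA replication, which is known to matter for genome stability.

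The study measured poly(A)+ RNA of cells in mid-log growth in YEPD. All strains are Mata. Both chromosomal pairs of H3 and H4 genes are deleted, written delta(hht-hhf1) and delta(hht2-hhf2), and the strains also carry ura3-62 and labelled mutations of leu2, trp1 and his3. As a result, histones H3 and H4 come only from a pair of centromeric plasmids. The TRP1-marked plasmid carries an H3 with L127A and L131V (H3X), and the LEU2-marked plasmid carries an H3 with L110I, A111W and L131I (H3Y). These changes make H3X pair with H3Y, so a mutation on 1 plasmid gives nucleosomes with 1 changed H3. K56R_H3X carries K56R on the TRP1-marked plasmid alone, K56R_H3Y on the LEU2-marked plasmid alone and K56R_double on both. The other double strains used here carry K14R, K18R, R2K, K36Q or K37Q on both plasmids. The strains delta4-20_H3Y, delta4-20_H3X, T45A_H3X and T45A_H3Y carry the named change on 1 plasmid. The pseudo_wt strain carries neither a tail nor a core mutation beyond the pairing changes. The labels name HHF1 as the H4 gene of the LEU2-marked plasmid in the K56R, K14R, K18R, R2K, K36Q, K37Q and T45A strains and HHF2 in pseudo_wt and the delta4-20 strains, so the point mutation and the H4 gene cannot be told apart in comparisons with pseudo_wt.

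The 3′-end assay had 66 libraries in batches 10 and 11, and the full-length assay had 98 libraries in batches 1 to 9. Total counts ran from 750551 to 5156160 in 3′-end libraries and from 542727 to 21573351 in full-length libraries. The 3′-end assay held 3 libraries of each mutant strain and, in each batch, 6 of pseudo_wt. The full-length assay held 2 libraries of each K56R strain, 1 of each delta4-20 and T45A strain and 5 of pseudo_wt. The labels do not say that replicates came from separate cultures, so p-values measure only the spread between these libraries. The full-length pseudo_wt replicates 1 to 3 differed less from each other than other same-strain pairs of that assay, with chi-square values per degree of freedom of 1.14 to 2.69 against at least 8.5 elsewhere. They were in 3 different batches and were kept as 3 libraries. A fit without replicates 2 and 3 called 93 members in place of 95 in K56R_H3X against K56R_H3Y and K56R_double. That contrast gives pseudo_wt no weight, so the count cannot show whether the 3 libraries are separate.

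One stretch of sequence is shown because it lies at both ends of the interval described for delta4-20_H3Y below, and because it limits what can be read from the mating-type rows. These are the last 300 bases of the MATALPHA2 reading frame (R64, chrIII:199546-199845, minus strand, inside an exon), with the stop codon shared by the reading frames in capitals:
MATALPHA2: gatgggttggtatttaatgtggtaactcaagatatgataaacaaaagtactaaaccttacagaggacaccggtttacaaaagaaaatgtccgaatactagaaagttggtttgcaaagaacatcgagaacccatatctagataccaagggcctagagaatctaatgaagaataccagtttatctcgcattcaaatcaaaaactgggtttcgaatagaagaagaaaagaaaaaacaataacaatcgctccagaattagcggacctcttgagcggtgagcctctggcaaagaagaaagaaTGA
MATALPHA2 encodes the alpha2 repressor. The same 300 bases stand without a change at the end of the HMRA2 reading frame (chrIII:293179-293478) and of the HMLALPHA2 reading frame (chrIII:12386-12685), both on the minus strand. The reference holds the alpha form at MAT, whereas the strains are labelled Mata.

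Chromosome III RNA stood well above the batch median in every K56R_H3X library and near it in the other K56R strains. The level of a library is the median, over members with a mean of at least 20 CPM (counts scaled to a common library total), of the log2 ratio to the median library of its batch. There were 105 such members in the 3′-end assay and 123 in the full-length assay. In the 3′-end assay the level was 0.85, 0.81 and 0.88 in the K56R_H3X libraries, −0.02, 0.00 and 0.02 in the K56R_H3Y libraries, −0.07, −0.05 and −0.09 in the K56R_double libraries, and −0.06 to 0.07 in the 6 pseudo_wt libraries of the batch. The K56R_H3X mean was 0.85 ± 0.03 (SD, n = 3), a fold of 1.80, and the other 63 libraries of the assay ran from −0.12 to 0.22. No other library of the assay came near K56R_H3X.

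The full-length assay gave the same picture in both batches that held K56R strains. The level was 0.85 in K56R_H3X, −0.14 in K56R_H3Y and −0.15 in K56R_double in batch 4. All 5 libraries of batch 4 other than K56R_H3X, delta4-20_H3Y and T45A_H3X, pseudo_wt included, lay below 0, with a mean of −0.12. The batch median that sets 0 includes K56R_H3X, delta4-20_H3Y and T45A_H3X. In batch 7 the level was 0.92 in K56R_H3X, −0.10 in K56R_H3Y and −0.12 in K56R_double. The 5 pseudo_wt libraries ran from −0.12 to 0.06. Leaving out K56R_H3X and delta4-20_H3Y, the remaining 95 libraries ran from −0.15 to 0.23. The libraries hold RNA only, so the number of copies of the chromosome was not measured.

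**Figure D1:**
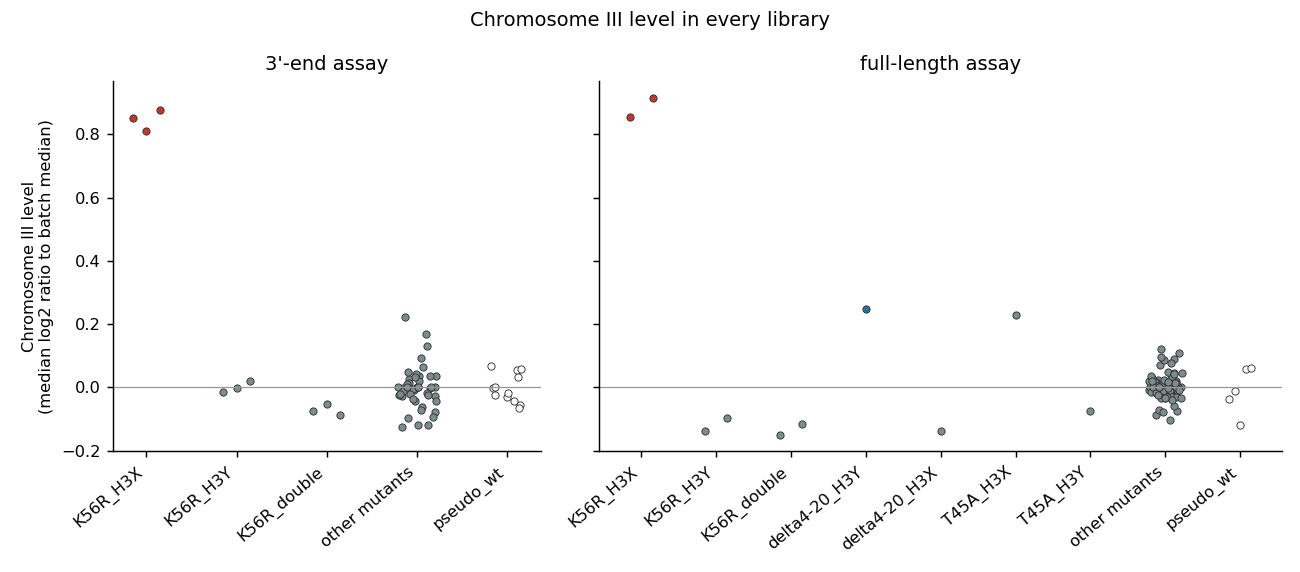
Chromosome III level in every library, as the median over members of the log2 ratio to the batch median (y axis), by strain (x axis), in the 3′-end assay (left) and the full-length assay (right). Each point is 1 library. The K56R_H3X libraries sit between 0.81 and 0.92, and every other library sits at or below 0.25.

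The shift in K56R_H3X covered both arms of the chromosome and was not made by a few genes. The leftmost member at 20 CPM was CHA1, so nothing at or left of HML entered the level. Of the 105 members, 104, 105 and 105 lay above the batch median in the 3 K56R_H3X libraries of the 3′-end assay, against 47, 47 and 57 in K56R_H3Y. In full-length libraries 122 of 123 members lay above it in each K56R_H3X library. No other chromosome moved with it: in these 5 libraries the median of the other chromosomes ran from −0.11 to 0.02. In K56R_double, one of the sister strains, chromosome X stood apart at 0.14 to 0.17 in 3′-end libraries and at 0.53 in 1 full-length library. The arms had medians of 0.83 to 0.86 on the left arm and 0.80 to 0.88 on the right arm in the 3′-end libraries of K56R_H3X. The full-length medians were 0.99 and 0.98 on the left arm and 0.77 and 0.89 on the right arm. The members between MAT and HMR stood at 0.76 to 0.88 in the 3′-end libraries, against 0.86 to 0.88 left of MAT. The members right of HMR, at 20 CPM only in the full-length assay, stood at 0.60 and 0.75 in the K56R_H3X libraries.

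**Figure D2:**
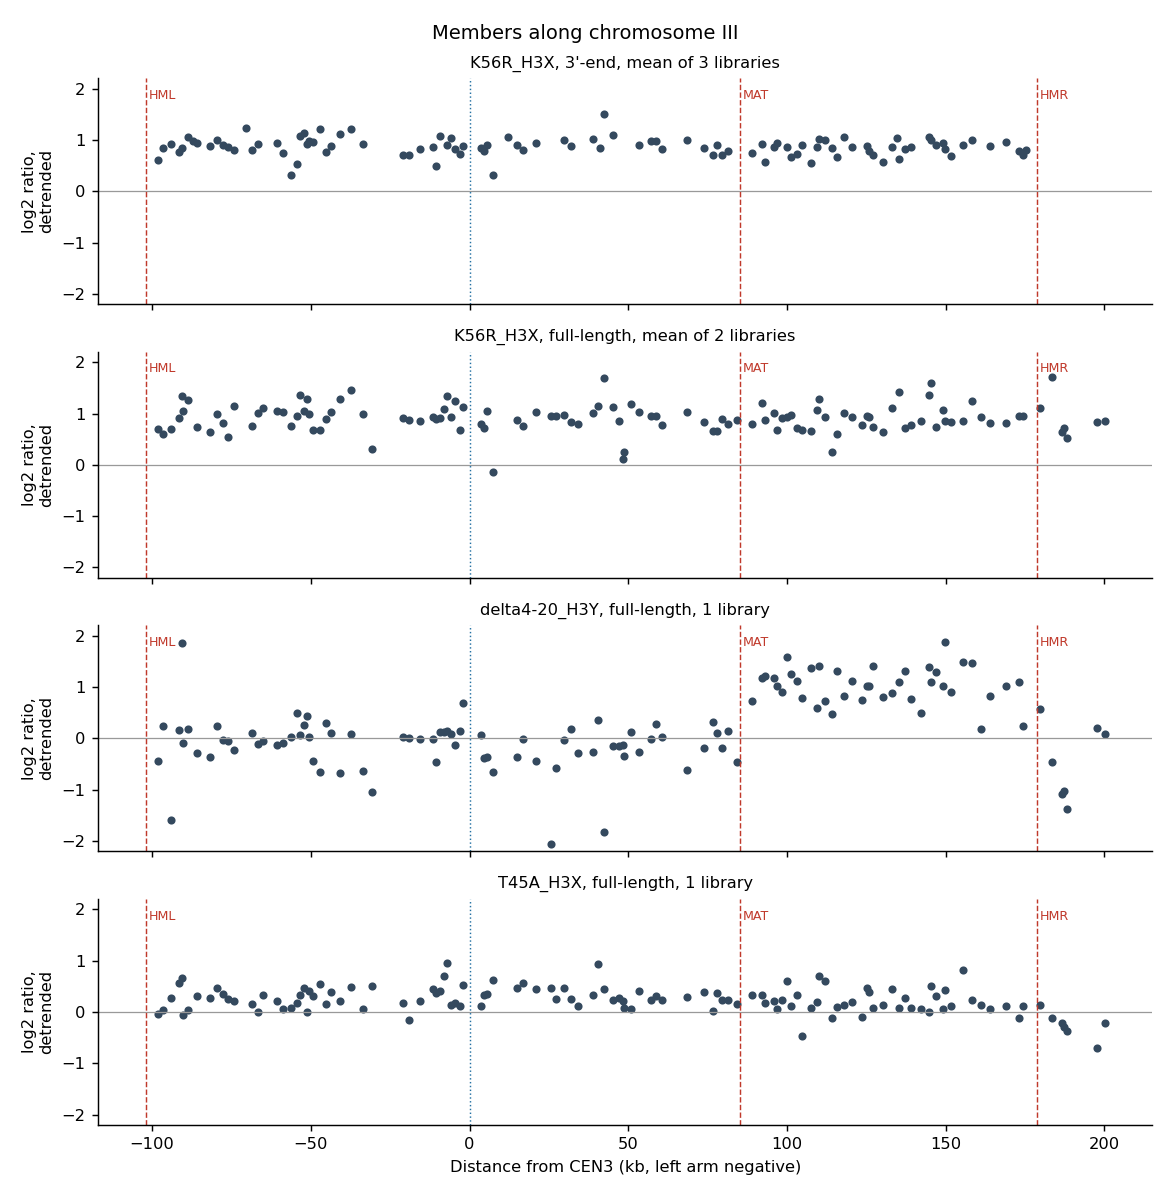
Members along chromosome III, with distance from the centromere CEN3 in kb on the x axis and the log2 ratio to the batch median on the y axis, after removal of trends on gene length and base content. Each point is 1 gene with at least 20 CPM, as the mean over the libraries of the panel; dashed lines mark HML, MAT and HMR, and the dotted line marks CEN3. K56R_H3X is raised along the range of genes shown in both assays, and delta4-20_H3Y is raised between MAT and HMR. T45A_H3X is raised by less from the leftmost genes shown to near HMR.

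Values of single genes in K56R_H3X are given next as a description, since they restate the choice of the chromosome. In the 3′-end assay, K56R_H3X was set against the mean of K56R_H3Y and K56R_double, which carry the same substitution. The median member had a log2 fold change of 0.88, or 1.85-fold, against 0.00 for all genes tested, and the 117 tested members ran from 0.33 to 1.26, all above 0. At an adjusted p under 0.05, 107 of the 117 were called, all higher, where 2.48% of all genes were called higher and 3.55% in either direction. In the full-length assay the median of 169 tested members was 1.11, with 95 called, all higher, where 1.73% of all genes were called higher and 1.82% in either direction. That count fell to 18 without K56R_H3X replicate 1, to 26 without K56R_H3X replicate 2 and to 46 without K56R_double replicate 2. It was 62 without K56R_H3Y replicate 1 and 61 without K56R_H3Y replicate 2. These counts describe the contrast by which the chromosome was chosen and are no independent evidence.

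THR4, which catalyses the last step of threonine synthesis, shows the usual member. It had 898, 1000.3 and 973 CPM in the K56R_H3X libraries, 547, 565 and 592 CPM in K56R_H3Y, 530.4, 540.4 and 467 CPM in K56R_double, and 563 to 682 CPM with a median of 630.0 CPM in the 6 pseudo_wt libraries. The K56R_H3X libraries lay above all others, and the log2 fold change against the sister strains was 0.83 ± 0.07 (SE). In the full-length assay THR4 had 966 and 1058 CPM in K56R_H3X, 591 and 476 CPM in K56R_H3Y, 511 and 462 CPM in K56R_double, and 551 to 613 CPM in pseudo_wt.

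The functional lists, chosen with results of these data known, are described by their values in the same contrast, and their counts are no test of the lists. Where all 117 members had 107 called and a median of 0.88, the lists had the following. Of the DNA replication and repair list, 7 of 7 members were called higher in K56R_H3X in the 3′-end assay, with a median log2 fold change of 1.02. They include RAD18, a ubiquitin ligase of lesion bypass, at 1.08 ± 0.11 (SE), and the single-stranded DNA-binding protein RIM1 of mitochondria at 1.15 ± 0.12. Of the ribosome assembly list, 6 of 6 tested members were called higher with a median of 0.96. The lowest was PWP2 at 0.57, and the highest was RRP7, a pre-rRNA processing factor, at 1.23. Of the mitochondrial protein list, 7 of 7 were called higher with a median of 0.87. Of the polarity and division list, 10 of 10 tested members were called higher with a median of 0.89, among them the septin CDC10 at 0.90 ± 0.08.

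Other lists had members that were not called. Of the transcription and chromatin list, 8 of 10 were called higher with a median of 0.87, including TUP1 at 0.94 ± 0.08. The members not called were SRB8 of the Mediator complex at 0.45 ± 0.30 and SGF29 of the SAGA complex at 0.41 ± 0.16. SRB8 was low, with means of 5.97 CPM in K56R_H3X, 4.03 CPM in K56R_H3Y and 4.77 CPM in K56R_double. Of the metabolic enzyme list, 7 of 9 were called higher with a median of 0.83. The members not called were the sterol acyltransferase ARE1 at 0.74 ± 0.22 and CIT2, which is described below. ARE1 was also low, with means of 11.1 CPM in K56R_H3X, 6.15 CPM in K56R_H3Y and 7.27 CPM in K56R_double. All 6 tested transporters and all 6 tested members of the folding and secretion list were called higher, with medians of 0.84 and 0.86. Every list's lowest value lay above 0 in this assay, beside a median of 0.00 over all genes tested.

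The spread of single genes around the chromosome's shift was like that of other genes around 0. Among genes with at least 20 CPM in the 3′-end assay, the log2 fold changes of members had an SD of 0.17 (n = 105), and those of genes off chromosome III had an SD of 0.17 (n = 4157). The full-length SD was 0.37 for members (n = 123) and 0.33 for other genes (n = 4756). After removal of the trends on length and base content, it was 0.27 for members and 0.27 for other genes. The departures of members from their own median did not run together between assays: Pearson's r was 0.02 and Spearman's rho 0.02 across 113 genes, and 0.24 and 0.22 after removal of the trends. These correlations are across genes, which share libraries and are not independent.

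**Figure D3:**
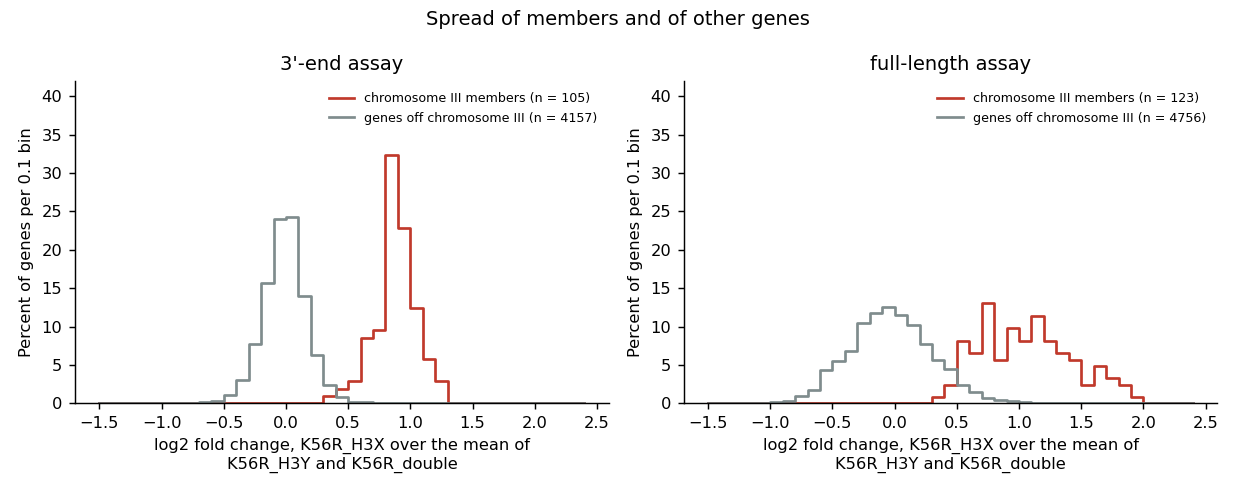
Distribution of log2 fold changes of K56R_H3X over the mean of K56R_H3Y and K56R_double (x axis), as the percent of genes in bins of 0.1 (y axis), for chromosome III members and genes off chromosome III with at least 20 CPM. The members form a displaced peak with a median of 0.88 in the 3′-end assay and 1.03 in the full-length assay, with an SD like that of the other genes in the 3′-end assay.

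The departures were related to length and GC content. The correlation of the log2 fold change with log2 length was −0.12 over 117 members in the 3′-end assay, and −0.46 over 169 members in the full-length assay, where genes off chromosome III had −0.36. With GC percent the correlation was −0.27 over the members in the 3′-end assay and 0.48 in the full-length assay, opposite in sign. Shorter members thus had the larger full-length fold changes, as shorter genes did elsewhere in the genome. Distance to the nearest chromosome end gave 0.07 in the 3′-end assay and 0.00 in the full-length assay. With 5 CPM or more in both assays and a standard symbol, 104 members could be compared for departures of at least 0.3 in the same direction. Only CIT2 and PWP2 met this, both below the chromosome's shift, and 0 members met it above.

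CIT2, the citrate synthase of peroxisomes and a known target of mitochondrial retrograde signalling, lies near the centromere. It had 226, 337 and 274 CPM in the K56R_H3X libraries of the 3′-end assay, 226, 218 and 261 CPM in K56R_H3Y, 182, 198 and 177 CPM in K56R_double, and 181 to 420 CPM with a median of 248 CPM in pseudo_wt. The K56R_H3X libraries overlapped K56R_H3Y and pseudo_wt, unlike THR4. The log2 fold change was 0.42 ± 0.19 (SE) against the sister strains and 0.08 against pseudo_wt, and the departure from the median member was −0.47. Single K56R_H3X libraries departed by −0.76 to −0.17. In the full-length assay CIT2 had 152 and 140 CPM in K56R_H3X, 135 and 146 CPM in K56R_H3Y, 106 and 40.8 CPM in K56R_double, and 118 to 182 CPM in pseudo_wt, a departure of −0.55.

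PWP2, part of the complex that processes the small ribosomal subunit's RNA, departed by less and with less spread. It had 218, 225 and 214 CPM in the K56R_H3X libraries of the 3′-end assay, 167, 166 and 129 CPM in K56R_H3Y, 150, 146 and 129 CPM in K56R_double, and 115 to 155 CPM with a median of 127 CPM in pseudo_wt. The K56R_H3X libraries lay above all others, with a log2 fold change of 0.57 ± 0.11 (SE) and a departure of −0.32. Against pseudo_wt its log2 fold change was 0.73, a departure of −0.13. In the full-length assay PWP2 had 304 and 359 CPM in K56R_H3X, 219 and 232 CPM in K56R_H3Y, 205 and 163 CPM in K56R_double, and 246 to 297 CPM in pseudo_wt, a departure of −0.41. That departure was −0.60 without K56R_H3X replicate 2 and −0.23 without replicate 1, which is inside the bound of 0.3.

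Other members with large 3′-end departures did not depart the same way in the full-length assay, and they were picked out here after their values were seen. The 3 lowest in the 3′-end assay were GFD2 at 0.33, SGF29 at 0.41 and CIT2, but in the full-length assay GFD2 and SGF29 departed by 0.29 and 0.04, above the median. The 3 highest in the 3′-end assay were RBP95, an RNA-binding protein gene, at 1.26, RRP7 at 1.23 and MRC1, a mediator of the replication checkpoint, at 1.22. They departed by 0.38, 0.34 and 0.33 in the 3′-end assay and in the opposite direction, by −0.45, −0.51 and −0.63, in the full-length assay. The one member below 0 in the full-length assay was the vacuolar transporter gene VBA3 at −0.21 ± 0.51 (SE), with 1.86 and 1.59 CPM in K56R_H3X, 2.04 and 1.26 CPM in K56R_H3Y, 3.30 and 2.19 CPM in K56R_double, and 0.232 to 1.94 CPM in pseudo_wt. Of its 50-base words in R64, 74.8% occur elsewhere in the genome, so its reads cannot be placed with certainty.

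Some members had larger fold changes than the chromosome's shift when K56R_H3X was set against pseudo_wt in place of the sister strains. Against pseudo_wt, 110 of 117 members were called, every one of them higher. The median member was at 0.85 on the log2 scale beside 0.03 for all genes, where 13.4% of all genes were called higher and 23.8% in either direction. The largest was POL4, the DNA polymerase of end joining, at 2.05. POL4 had 43.9, 40.7 and 25.6 CPM in K56R_H3X, 19.9, 17.1 and 8.58 CPM in K56R_H3Y, 24.4, 23.7 and 16.4 CPM in K56R_double, and 5.96 to 15.3 CPM with a median of 7.41 CPM in pseudo_wt. MRC1 was next, at 1.68, with 126, 125.0 and 79.3 CPM in K56R_H3X, 51.2, 53.9 and 27.2 CPM in K56R_H3Y, 51.0, 53.0 and 47.8 CPM in K56R_double, and 23.0 to 60.7 CPM in pseudo_wt. For both genes K56R_H3X replicate 5 and K56R_H3Y replicate 5 were the lowest of their strains.

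**Figure D4:**
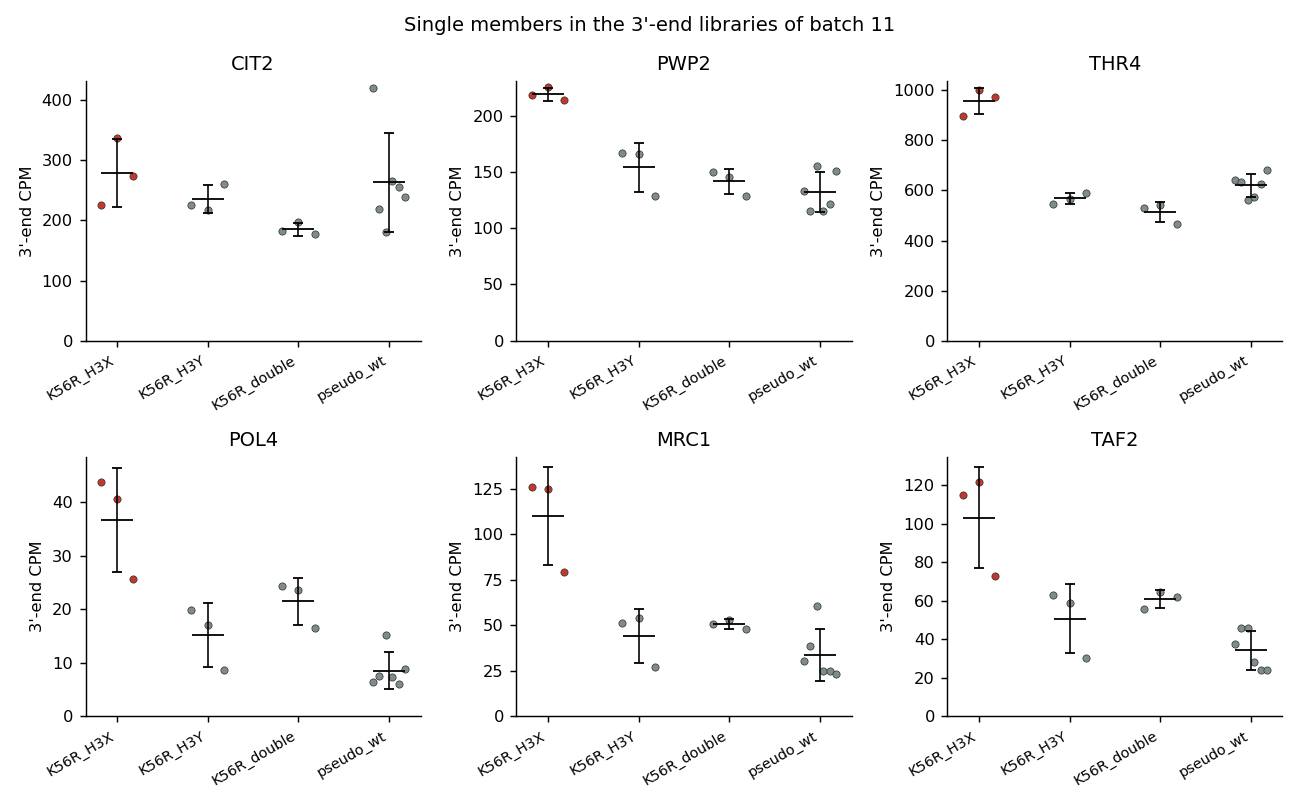
CPM of 6 members (y axis) in the 3′-end libraries of batch 11 by strain (x axis). Points are libraries, bars are the mean and SD (n = 3 for each K56R strain, n = 6 for pseudo_wt). THR4 in K56R_H3X (898 to 1000.3 CPM) stands apart from every other strain, CIT2 overlaps, and POL4 is also raised in K56R_double.

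K56R_double and K56R_H3Y were also tested against pseudo_wt. The choice of members did not use these contrasts, but it used K56R_H3X against the sister strains and against pseudo_wt. Those values largely fix the median member here, which is therefore no independent result. The chromosome had no common shift there: the median member had a log2 fold change of 0.00 in K56R_double and −0.02 in K56R_H3Y, beside 0.05 and 0.03 over all genes tested. In K56R_double 18 of 117 members were called, 8 higher and 10 lower, or 15.4% of the members beside 23.9% of all genes, with 13.4% of all genes higher and 10.5% lower. In K56R_H3Y 0 of 117 were called by edgeR's quasi-likelihood test beside 0.867% of all genes. DESeq2 called 4 of 116 members beside 3.87% of all genes. At an unadjusted edgeR p under 0.05 there were 18 members, and the share of all genes at that cut was not computed. The K56R_double count was 32 without pseudo_wt replicate 16, 8 without K56R_double replicate 4 and 5 without K56R_double replicate 5. The K56R_H3Y count was 10 without pseudo_wt replicate 16 and 7 without K56R_H3Y replicate 5.

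The members that rose in K56R_double were led by POL4, with the values given above and a log2 fold change of 1.28 ± 0.28 (SE, adjusted p = 0.002, edgeR). TAF2, a subunit of the TFIID initiation factor, rose by 0.83 ± 0.26 (adjusted p = 0.021), with 55.9, 64.6 and 62.0 CPM in K56R_double against 23.8 to 45.8 CPM and a median of 32.9 CPM in pseudo_wt. BPH1, a BEACH-domain protein gene, rose by 0.77 ± 0.23 (adjusted p = 0.016), with 31.6, 31.3 and 34.4 CPM in K56R_double against 13.5 to 28.8 CPM in pseudo_wt. The rule that named these genes required the 3 K56R_double libraries to lie above all 6 pseudo_wt libraries, so that is no further support. TAF2 was not called without K56R_double replicate 4 or 5, or with replicates 3 and 4 summed, and BPH1 was not called without replicate 5. Replicates 3 and 4 were the most alike same-strain pair of the 3′-end assay, with a chi-square per degree of freedom of 1.59. Fold changes in this comparison were also larger for longer genes, with a correlation with log2 length of 0.38 across 117 members and 0.39 across 4844 other genes, and the rows of POL4, TAF2 and BPH1 are 1750, 4225 and 6505 bases long. The part of length in these calls was not tested.

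The members that fell in K56R_double did so by less. SRO9, an RNA-binding protein gene, had 263, 287 and 259 CPM in K56R_double against 330.5 to 513 CPM and a median of 359.8 CPM in pseudo_wt, a change of −0.49 ± 0.13 (adjusted p = 0.0074, edgeR). The fatty acid elongase ELO2 fell by 0.44 (SE 0.09, adjusted p = 7.7e-04), with 267, 242 and 234 CPM in K56R_double against 297 to 357 CPM in pseudo_wt. The actin-binding protein ABP1 fell by 0.35 (SE 0.09, adjusted p = 0.0064), with 334, 330.0 and 337 CPM in K56R_double against 351 to 463 CPM in pseudo_wt. THR4 was also lower, by 0.28 on the log2 scale, at 513 ± 39.8 CPM in K56R_double and 621 ± 44.6 CPM in pseudo_wt (SD, n = 3 and 6). Among the lists, the transcription and chromatin list had 3 of 10 members called higher (TAF2, SNT1 and CDC39) and 1 lower (RSC6), and the ribosome assembly list had 0 of 6.

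The share of members called in K14R_double, in either direction, was near that of all genes. By direction they differed: more members were called lower than higher, while more of all genes were called higher than lower. Of 117 members 47 were called, 15 higher and 32 lower, with a median log2 fold change of −0.15 beside 0.01 for all genes. That is 40.2% of the members beside 36.2% of all genes, with 20.4% of all genes higher and 15.8% lower. The count was 27 without K14R_double replicate 3 and 17 without replicate 5. Fold changes in this comparison were larger for longer genes, with a correlation with log2 length of 0.44 across 117 members and 0.42 across 4844 other genes. POL4, MRC1 and TAF2, described next as higher, have rows 1750 to 4225 bases long, and TAH1, MXR2 and LDB16, described as lower, have rows 337 to 772 bases long. The part of length in these calls was not tested.

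POL4 had the largest rise among the genes named here, in a comparison that shares its 6 pseudo_wt libraries with that of K56R_double, at 1.50 ± 0.27 (adjusted p = 2.8e-04, edgeR), with 20.2, 27.4 and 28.1 CPM in K14R_double against 5.96 to 15.3 CPM in pseudo_wt. MRC1 rose by 1.15 ± 0.26 (adjusted p = 0.0017), with 61.5, 77.6 and 89.6 CPM in K14R_double against 23.0 to 60.7 CPM in pseudo_wt. TAF2 rose by 1.13 ± 0.25 (adjusted p = 0.0015). TAH1, a cochaperone of Hsp90, had 22.2, 23.8 and 19.7 CPM in K14R_double against 31.9 to 56.3 CPM and a median of 48.3 CPM in pseudo_wt, and fell by 1.09 (SE 0.24, adjusted p = 0.0012). MXR2, a mitochondrial methionine sulfoxide reductase, fell by 0.91 (SE 0.32, adjusted p = 0.027), with 112, 135 and 118 CPM in K14R_double against 152 to 296 CPM in pseudo_wt. LDB16, a lipid droplet assembly factor, fell by 0.56 (SE 0.13, adjusted p = 0.0021). The rule that named these 6 genes required no overlap between the K14R_double and pseudo_wt libraries, so its absence is no further support. MXR2 alone of the 6 was not called when a library was left out, for each K14R_double replicate and for pseudo_wt replicate 17.

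The counts by list are read beside the 20.4% of all genes called higher and 15.8% called lower in K14R_double, and with 6 to 10 genes a list none is called particular to it. The transcription and chromatin list had 2 of 10 members called higher (TAF2 and SNT1) and 3 lower (RSC6, HCM1 and TUP1). K14R_double raised 3 of 6 tested ribosome assembly genes (SPB1 at 1.05, RRP7 at 0.64 and RRP43 at 0.60) and lowered 0, with a list median of 0.46. It lowered 3 of 7 mitochondrial protein genes (MGR1 at −0.49, TRX3 at −0.47 and RIM1 at −0.33) and raised 0, with a median of −0.33. Of the metabolic enzymes 5 of 9 fell, among them ILV6 of branched-chain amino acid synthesis at −0.49 and HIS4 of histidine synthesis at −0.40. The serine and threonine deaminase CHA1 rose, at 0.73, with 81.7 ± 6.27 CPM in K14R_double and 49.2 ± 5.29 CPM in pseudo_wt (SD, n = 3 and 6). The DNA replication and repair list had 2 of 7 higher (POL4 and MRC1) and 2 lower (DCC1 and RIM1), and the polarity and division list had 1 of 10 higher (BUD3 at 0.70). Of the transporters, 1 of 6 fell (FEN2 at −0.64).

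The other double strains left the chromosome near pseudo_wt. In K18R_double the median member was at 0.08. By edgeR, 1 of 117 members was called, beside 1.81% of all genes called and 1.25% called higher. DESeq2 called 6 of 118 members beside 4.77% of all genes. At an unadjusted edgeR p under 0.05 there were 17 members, again without a share of all genes at that cut. The called member was MXR2, with 287, 200.0 and 1137 CPM in K18R_double against 152 to 296 CPM in pseudo_wt, and the groups overlapped. MXR2 was not called without K18R_double replicate 5 or without pseudo_wt replicate 14, 15, 16, 18 or 19. K18R_double replicate 5 had the lowest total of the assay, 750551 counts. It was also unlike replicates 3 and 4, with chi-square values per degree of freedom of 43.33 and 72.43. The count of members was 18 without K18R_double replicate 4, 4 without K18R_double replicate 3 and 3 without pseudo_wt replicate 17. In R2K_double, K36Q_double and K37Q_double the medians were 0.03, −0.02 and 0.08, and 0 of 117 members were called in each by edgeR, beside 0.0%, 0.0% and 0.1% of all genes. At an unadjusted edgeR p under 0.05 there were 19, 11 and 23 members. The share of all genes at that cut was not computed, so these counts cannot be compared with the genome. DESeq2 called 0 members in each, beside 0.0798%, 0% and 0.208% of all genes.

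**Figure D5:**
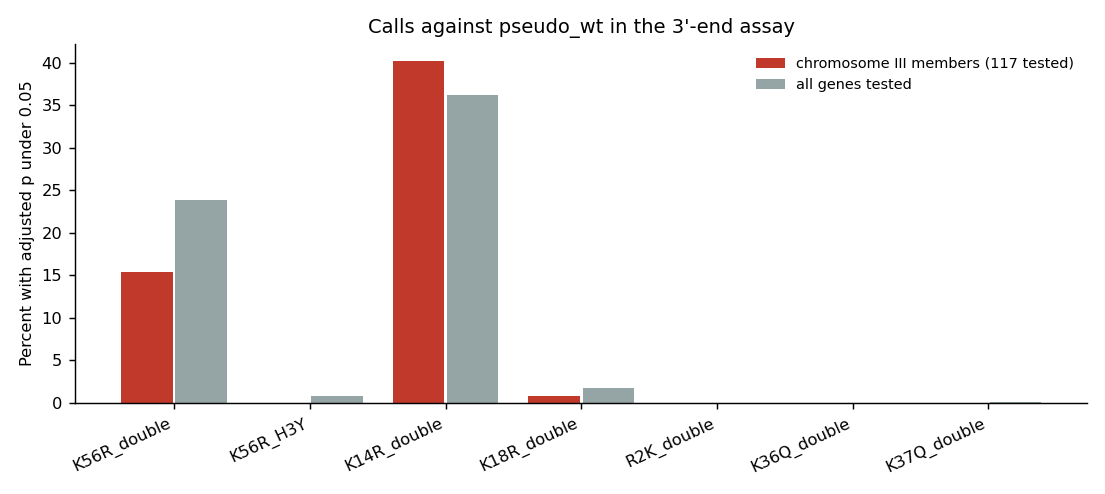
Percent of genes with an adjusted p under 0.05 (y axis) in 7 strains against pseudo_wt in the 3′-end assay (x axis), for chromosome III members (left bars) and all genes tested (right bars). The members' share was 15.4% in K56R_double and 40.2% in K14R_double, beside 23.9% and 36.2% of all genes.

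In delta4-20_H3Y, measured in 1 full-length library, the chromosome was raised between MAT and HMR, an interval chosen after its profile was seen. The members between MAT and HMR stood at a median of 1.34 on the log2 scale relative to the batch (41 members at 20 CPM), against 0.04 left of MAT (75 members) and −0.60 right of HMR (6 members). After removal of the trends on length and base content the medians were 1.03, −0.03 and −0.74, and 39 of the 41 members between MAT and HMR lay above 0.45, against 3 of 75 left of MAT and 0 of 6 right of HMR. Without that removal the counts above 0.45 were 37 of 41 in the interval, 17 of 75 left of MAT and 0 of 6 right of HMR. In delta4-20_H3X, also 1 library, the same interval stood at −0.28, against −0.08 left of MAT and 0.28 right of HMR. In the pseudo_wt library of the same batch the interval stood at −0.20, against −0.10 left of MAT and 0.05 right of HMR. Values right of HMR varied widely in other full-length libraries, with −1.39 in K36Q_double replicate 2 and 0.50 in pseudo_wt replicate 2. The median of the interval minus that of the other members was 1.32 in delta4-20_H3Y and ran from −0.24 to 0.72 in the other 97 full-length libraries, highest in K14R_double replicate 2. After removal of the trends it was 1.07 in delta4-20_H3Y and ran from −0.20 to 0.19 in the others.

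The genes on either side of MAT and HMR, the ends chosen for the interval, are given next. The shared sequence shown above lies at both loci, and its part in the interval was not tested. Long terminal repeats of Ty1 and Ty5 elements also lie between OCA4 and HMR in R64. The last measured gene before MAT was BUD5, which selects bud sites and has 37.1% of its 50-base words elsewhere in R64. It had 28.5 CPM in delta4-20_H3Y and 46.8 CPM in delta4-20_H3X. The first gene at 20 CPM after MAT, TAF2, had 353 CPM in delta4-20_H3Y and 213 CPM in delta4-20_H3X. Inside the interval PWP2 had 576 CPM in delta4-20_H3Y and 179 CPM in delta4-20_H3X, TUP1 had 900.2 CPM against 295 CPM, and THR4 had 1429 CPM against 566 CPM. Near HMR, the flippase subunit CDC50 had 126 CPM in delta4-20_H3Y and 44.2 CPM in delta4-20_H3X. OCA4, the last gene at 20 CPM before HMR, had 37.4 CPM in delta4-20_H3Y and 27.3 CPM in delta4-20_H3X. Its log2 ratio was 0.44, beside 1.49 in CDC50, so the rise was already small before HMR. Beyond HMR the transporter gene GIT1 had 20.3 CPM in delta4-20_H3Y and 31.2 CPM in delta4-20_H3X. The ratio of delta4-20_H3Y to delta4-20_H3X had a median of 1.49 on the log2 scale over the 41 members. Of the 41 members 38 lay above 0.5, where 26.7% of all genes and 26.1% of genes off chromosome III did. Left of MAT 25 of 75 members lay above 0.5, and right of HMR 0 of 6 did. The delta4-20_H3X library held 699991 counts, against 3259597 in delta4-20_H3Y, so its lower CPM values rest on few reads. With 1 library a strain, there is no replicate check of any of these values.

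The members in the interval that lay below 0.45 after removal of the trends were the protein kinase gene KIN82 at 0.18 and OCA4 at 0.24. CIT2, left of MAT, had 109 CPM in delta4-20_H3Y and 274 CPM in delta4-20_H3X. The K56R_H3X libraries did not show the interval: the difference of the interval from the other members ran from −0.10 to 0.00.

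In T45A_H3X, also 1 full-length library, the level was 0.23, against −0.08 in T45A_H3Y of the same batch and at most 0.06 in pseudo_wt. Of 123 members, 104 lay above the batch median in T45A_H3X. The median was 0.28 left of MAT, 0.19 between MAT and HMR and −0.30 right of HMR. The value right of HMR rests on 6 members. In other full-length libraries it was as far apart as −1.39 in K36Q_double replicate 2 and 0.50 in pseudo_wt replicate 2.

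The mating-type rows are in the full-length files only. All but HMRA1 were low and share their sequence with other loci, so their counts are uncertain. HMRA1 has 0.0% of its 50-base words elsewhere in R64 and reached 123 CPM in K36Q_H3Y replicate 2, with a median of 21.3 CPM. A Mata strain also holds the a1 gene at MAT, which the R64 reference lacks, so reads of this row can come from either locus. MATALPHA1 had 12 reads and HMLALPHA1 had 7 reads over 98 libraries. MATALPHA2, HMRA2 and HMLALPHA2 had medians of 6.48, 4.58 and 5.89 CPM, and all of the 50-base words of the 3 rows occur elsewhere in the genome. Each of the 3 was highest in K56R_H3X replicate 1, at 16.7, 13.3 and 15.8 CPM in that order. HMRA1, which encodes the a1 repressor subunit, had 42.1 and 80.7 CPM in K56R_H3X, 14.7 and 40.8 CPM in K56R_H3Y, 16.5 and 42.9 CPM in K56R_double, and 8.35 to 17.8 CPM in pseudo_wt. The K56R_H3X value was the highest of the K56R strains in each batch. Of the 4 mating-type rows tested in the full-length contrast, 0 were called by edgeR, with log2 fold changes of 0.73 to 1.17.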

How the data were processed

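Poly(A)+ RNA was counted per gene in 66 3′-end and 98 full-length libraries. The authors deposited raw read counts per feature. Reads were aligned with TopHat2 2.0.12 and Bowtie2 to sacCer3, per the submitters' processing notes, and counted with featureCounts 1.4.6-p2, per the file headers, with the strand of each assay set. The headers of the 3′-end files name another aligner path, so the aligner of that assay is uncertain.

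Library levels are medians of log2(CPM + 1) after TMM scaling, relative to the batch median. CPM was computed here from the deposited counts. Counts were tested with edgeR 4.0.16 (quasi-likelihood test, filterByExpr, Benjamini-Hochberg over all genes tested, threshold 0.05), per batch in the 3′-end assay (4984 genes in batch 10, 4961 in batch 11) and with batch as a term in the full-length assay (6376 genes). In the full-length fit 1 batch term could not be estimated and was dropped. DESeq2 1.42.0, other filters and baselines and leaving out each library were alternatives. The script was tested on simulated data. Trends on length and base content were removed as an alternative added after the data were seen. R64 was used as the sequence reference: 6000 of 6008 matched full-length features have its ends.

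The members and gene lists were chosen with earlier results of these data known. Departing genes were named where log2 fold changes differed from the members' median by at least 0.3 in both assays in the same direction. In strains tested against pseudo_wt, the genes named by rule were up to 3 called in each direction with the largest changes and no overlap of groups; others are list members or were chosen after their values were seen.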

Additional observations from a re-analysis of the deposited data

Results flagged for a closer look

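Among the members named in the report, 8 of the 45 groups examined, each 1 gene in the pseudo_wt libraries of 1 batch or assay or a level, held a library far from the rest, where chance gives about 1 in 20. In the 3′-end batch 11, pseudo_wt replicate 16 was high for BPH1 at 28.8 CPM (next 17.9) and for POL4 at 15.3 CPM (next 8.82). Replicate 14 was high for CIT2 at 419.8 CPM (next 265), and replicate 15 was high for SRO9 at 513 CPM (next 367). In batch 10, pseudo_wt replicate 8 was high for BPH1 at 41.5 CPM (next 29.8), and replicate 12 was low for LDB16 at 34.0 CPM (next 43.6). In the full-length assay, pseudo_wt replicate 5 was high for LDB16 at 93.0 CPM (next 42.6) and low for TAF2 at 176 CPM (next 278.0).

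The chromosome III level of the T45A_H3X library, which enters no test, was 0.23, above the 0.06 of the highest full-length pseudo_wt library. After removal of the trends on length and base content it was 0.22, against 0.11. Of the 85 full-length libraries outside the comparisons, 8 lay above the highest pseudo_wt level, and 1 did so both with and without the trends.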

How the results depend on the processing

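Values near 0 changed sign: the K56R_H3Y full-length replicate 2 level of −0.10 was 0.02 with the pseudo_wt baseline, the R2K_double median member of 0.03 was −0.0013 without R2K_double replicate 5, and the K56R_double median of −0.002 was 0.02 without pseudo_wt replicate 16. With the pseudo_wt baseline the K56R_H3X full-length level was 0.98. The delta4-20_H3Y level of 0.25 was 0.40 with that baseline, 0.40 as a mean over members and 0.13 after removal of the trends. The difference between the MAT to HMR interval and the other members in delta4-20_H3Y was 1.07 after removal of the trends, and the difference from delta4-20_H3X in that interval was 1.25. DESeq2 called 4 members in K56R_H3Y and 6 in K18R_double, beside 3.87% and 4.77% of all genes. With K56R_double replicates 3 and 4 summed, 9 members were called in K56R_double.

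Leaving out 1 library at a time, the members called ran from 5 to 32 in K56R_double, 0 to 10 in K56R_H3Y, 17 to 54 in K14R_double, 0 to 18 in K18R_double and 0 to 3 in K36Q_double, each against pseudo_wt. K56R_H3X against its sister strains ran from 101 to 107 in the 3′-end assay and from 18 to 69 in the full-length assay. With the replicate number as a block in the 9 K56R libraries, 110 members were called, as in the same fit without the block. The labels name no pairing. Same-numbered libraries of K56R_H3X and K56R_H3Y deviated together (r from 0.19 to 0.51), and those of K56R_double did not. Replicates 3 and 4 of K56R_H3X and K56R_H3Y also deviated together across numbers (r of 0.20 and 0.24). Replicate 5 of either strain went against 3 and 4 of the other (r from −0.44 to −0.27). The values therefore set replicate 5 apart and do not match 3 and 4 by number. Low depth limits members such as VBA3, and single libraries limit the delta4-20 and T45A strains.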
